A study of Homo sapiens with 18 samples.

Results

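The 10 genes described here carry glucose carbon from the aldolase step of glycolysis to lactate and out of the cell. They are ALDOA, GAPDH, PGK1, PGAM1, ENO1 and PKM of lower glycolysis, the lactate dehydrogenase genes LDHA and LDHB, and the lactate transporter genes SLC16A1 and SLC16A3. They were taken by name from a count table of 19901 genes, and all 10 had enough reads to be tested among 15475 genes. mRNA was sequenced from the head and neck squamous cell carcinoma lines Detroit 562, from a metastasis of a pharyngeal tumor, FaDu, from a hypopharyngeal tumor, and SCC-9, from a tumor of the tongue. Each line was left untreated (control) or given 50 ng/ml hepatocyte growth factor (HGF), the ligand of the Met receptor, with 3 libraries per line and treatment and 18 in all. Treatment lasted 16 h by the sample records, whereas the series record states 48 h. The medium of SCC-9 was DMEM F12 with hydrocortisone and that of the other lines MEM-α, so that medium and cell line cannot be told apart wherever SCC-9 was compared with another line.

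Lower glycolysis turns the triose phosphates made from glucose into pyruvate and yields the pathway's net ATP. Lactate dehydrogenase then interconverts pyruvate and lactate and regenerates the NAD+ that GAPDH needs, as a tetramer of the A chain (LDHA, common in glycolytic tissue) and the B chain (LDHB, common in oxidative tissue). Lactate leaves the cell with a proton through monocarboxylate transporters, among them MCT1, the product of SLC16A1, and MCT4, the product of SLC16A3.

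Libraries held between 35304770 and 44003970 counts, and the 10 genes took between 1.23% and 1.86% of them. Levels are given as CPM, the count scaled to library size after normalization by the TMM method, as mean ± SD with n = 3 libraries. TMM factors ranged from 0.931 to 0.952 in HGF-treated and from 0.966 to 0.990 in control Detroit 562 and reached 1.05 in SCC-9. No pair of libraries in a group matched within sampling noise (chi-square per degree of freedom 7.43 to 70.7). All 8 squamous epithelium markers had reads in every group, with summed levels from 2602 to 10344 CPM. Of 5 leukocyte markers PTPRC, CD3E and MS4A1 had at most 4 counts in any library, whereas CD14 reached 413 and CD68, which is also made outside leukocytes, 2441 counts. In Detroit 562 with HGF, 2 of the 8 squamous markers fell by the thresholds given below. They were KRT5 (2105 to 1129 CPM) and CDH1 (302 to 215 CPM). The sum of all 8 went from between 3650 and 4889 CPM to between 2602 and 3778 CPM. Another 3 of the 8 had a fold change above 0, among them SFN (414 to 483 CPM) and EPCAM (426 to 493 CPM), and 0 rose by those thresholds. Of 7 fibroblast markers COL1A1 and COL1A2 fell, and the sum went from between 30.2 and 54.6 CPM to between 15.3 and 27.8 CPM. COL3A1, PDGFRB and DCN were at 0 in the HGF libraries and were practically absent in the controls too, with means of at most 0.00786 CPM. CD68 rose from 27.7 to 43.8 CPM, with leukocyte sums from 20.3 to 40.5 CPM without and 37.4 to 56.2 CPM with HGF. Of 3 endothelium markers VWF fell from 1.72 to 0.391 CPM, and the sums were 1.158 to 2.90 CPM without and 0.487 to 1.064 CPM with HGF. Their part in the results was not tested. Each library came from a cultured tumor line, and in bulk samples fewer cells that make a marker and less of its RNA per cell cannot be told apart.

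A gene was called changed where edgeR's quasi-likelihood test gave a p below 0.1 after Benjamini-Hochberg adjustment and the log2 fold change was 0.4 or more in size, the study's own thresholds. All adjusted p-values below come from that test unless another tool is named. Control and HGF libraries of the same replicate number deviated together, least clearly replicates 1 and 2 of Detroit 562. A second model with a term for the replicate number in each line is called the blocked model.

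The genes ranged from among the most abundant mRNAs of these cells to moderate ones. By mean CPM over all libraries GAPDH ranked 2, ENO1 17, PKM 20, ALDOA 48, LDHA 75, LDHB 102, PGAM1 184, PGK1 274, SLC16A1 1101 and SLC16A3 1200 of the 15475 genes. Levels of different genes were set side by side only as CPM per kb of the reference transcript. On that scale GAPDH was highest in all 6 groups, from 2068 in control SCC-9 to 6074 in HGF-treated FaDu. The transporter genes were lowest in all 6 groups, with SLC16A1 between 17.8 and 73.9 and SLC16A3 between 34.6 and 120. PGK1, the kinase that makes the first ATP of the pathway's payoff phase, stood just above them at 75.3 to 128.

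Positions are those of GENCODE 28 on GRCh38. ALDOA (ENSG00000149925.18) lies at chr16:30064164-30070457, GAPDH (ENSG00000111640.14) at chr12:6533927-6538374 and PGK1 (ENSG00000102144.14) at chrX:77910739-78129296, all on the plus strand. PGAM1 (ENSG00000171314.8) lies at chr10:97426160-97433441 on the plus strand, ENO1 (ENSG00000074800.14) at chr1:8861000-8879250 and PKM (ENSG00000067225.17) at chr15:72199029-72231822 on the minus strand. LDHA (ENSG00000134333.13) lies at chr11:18394388-18408425 on the plus strand and LDHB (ENSG00000111716.12) at chr12:21635342-21757857 on the minus strand. SLC16A1 (ENSG00000155380.11) lies at chr1:112911847-112957013 on the minus strand and SLC16A3 (ENSG00000141526.16) at chr17:82228397-82261129 on the plus strand. Some of these counts are uncertain, because near copies or overlapping genes share reads. Of all 75-base stretches in the PGAM1 reference transcript, 87.7% occur elsewhere in the genome, against 4.75% for LDHA, 3.93% for PGK1, 3.8% for GAPDH, 1.23% for ENO1, 0.448% for PKM and 0% for the other 4 genes. PGAM4, a near copy of PGAM1 on the opposite strand of the PGK1 interval, had between 58.6 and 77.0 CPM. ALDOA shares 99.4% of its interval and practically the whole of its count with CTD-2515O10.6 on the same strand. ATP7A lies on the same strand within the PGK1 interval, with a mean count that is 1.76% of that of PGK1. CSNK1D overlaps 67.5% of SLC16A3 on the opposite strand, which strand-specific counting keeps apart.

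The question of the first comparison was which of these genes responded to HGF in Detroit 562. LDHA and SLC16A1 rose, the first 1.35-fold and the second 1.36-fold. The other 8 genes had fold changes above 0 as well, from 1.08-fold for GAPDH and ALDOA to 1.24-fold for PGK1, all below the minimum. PGK1, ENO1, LDHB, PGAM1 and PKM passed the adjusted p alone, and ALDOA, GAPDH and SLC16A3 did not. The 2 called genes stand beside 6.16% of all tested genes called higher and 11.7% called lower in Detroit 562.

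LDHA, whose product favours the step from pyruvate to lactate in glycolytic cells, stood at 761, 804 and 963 CPM in control Detroit 562 and at 1098, 1063 and 1250 CPM with HGF. Every HGF library was above every control library, and the library of replicate 3 was the highest of each treatment. The mean went from 843 ± 107 to 1137 ± 99.6 CPM, a log2 fold change of 0.43 (SE 0.0901, adjusted p = 0.00394, higher in 3 of 3 same-numbered pairs). LDHB, for the other chain of the enzyme, stood at 774, 818 and 791 CPM without and at 983, 970 and 907 CPM with HGF. These groups did not overlap either, and the log2 fold change of 0.26 (SE 0.0597, adjusted p = 0.00605) was below the minimum.

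Promoters of LDHA and LDHB are shown because these genes differed in opposite directions between the untreated lines, and that of PGK1 because it, like LDHA, was highest in replicate 3 of both Detroit 562 groups. SLC16A1 and SLC16A3 were highest there too, and no promoter of theirs is printed. Hypoxia-inducible factors, which control many genes of glycolysis, recognise the core letters ACGTG or GCGTG. These letters were searched on both strands and are printed in capitals, as CACGT and CACGC where they lie on the other strand. CACGTG holds ACGTG on both strands and counts 2 times. Sequences run 5′ to 3′ from 250 bases before to 50 bases after the transcript start and come from RefSeq (GRCh38.p14), at chr11:18394313-18394612 on the plus strand for LDHA, chr12:21657793-21658092 on the minus strand for LDHB and chrX:78103998-78104297 on the plus strand for PGK1.
LDHA: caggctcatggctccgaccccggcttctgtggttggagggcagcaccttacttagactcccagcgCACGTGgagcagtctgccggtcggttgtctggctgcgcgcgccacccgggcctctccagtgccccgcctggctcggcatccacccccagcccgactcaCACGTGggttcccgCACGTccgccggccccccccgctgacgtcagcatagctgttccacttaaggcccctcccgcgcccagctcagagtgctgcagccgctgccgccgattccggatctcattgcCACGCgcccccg
LDHB: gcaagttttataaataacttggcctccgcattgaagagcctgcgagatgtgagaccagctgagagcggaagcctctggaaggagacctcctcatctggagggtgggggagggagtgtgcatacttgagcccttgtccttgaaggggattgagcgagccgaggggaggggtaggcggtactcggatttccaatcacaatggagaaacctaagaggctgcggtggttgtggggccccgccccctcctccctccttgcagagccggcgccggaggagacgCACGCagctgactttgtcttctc
PGK1: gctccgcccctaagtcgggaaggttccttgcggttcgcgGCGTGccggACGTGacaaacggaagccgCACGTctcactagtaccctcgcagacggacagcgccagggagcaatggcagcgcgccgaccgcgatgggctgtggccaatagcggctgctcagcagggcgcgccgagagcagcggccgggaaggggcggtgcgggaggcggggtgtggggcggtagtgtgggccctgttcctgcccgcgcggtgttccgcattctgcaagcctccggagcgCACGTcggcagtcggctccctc
The printed LDHA window held 5 matches to ACGTG and 1 to GCGTG, the PGK1 window 3 and 1, and the LDHB window 0 and 1. A second LDHA window, at chr11:18396101-18396400 and not printed, held 0 and 1 like that of LDHB. The ENO1 window, which is not printed, held 0 and 2. The SLC16A3 windows, also not printed, held 0 and 0, 2 and 0, 0 and 0, 0 and 3, and 0 and 1. Of 35116 promoter windows of this length, 21.4% held ACGTG, 36.5% held GCGTG and 48.4% held either. The table had 16 windows for 9 of the genes, none of them for SLC16A1, and 13 of the 16 held either motif. A match describes letters and not a bound site.

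SLC16A1 stood at 55.8, 59.1 and 85.8 CPM in control Detroit 562 and at 77.0, 87.3 and 110 CPM with HGF. The groups overlapped, since the control library of replicate 3 lay above the HGF library of replicate 1, while all 3 same-numbered pairs went up. The log2 fold change was 0.45 (SE 0.133, adjusted p = 0.0225), and in the blocked model it was 0.46 with a smaller error (SE 0.0495, adjusted p = 4.59e-06). SLC16A3, the exporter typical of glycolytic cells, stood at 82.1, 88.8 and 99.2 CPM without and at 109, 98.7 and 118 CPM with HGF. These groups overlapped narrowly, and the log2 fold change of 0.27 (SE 0.175, 95% interval -0.10 to 0.64, adjusted p = 0.268) missed the threshold. In the blocked model its adjusted p was 6.77e-04, still below the minimum fold change.

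Among the enzymes of lower glycolysis, ENO1 had the smallest adjusted p. Enolase forms phosphoenolpyruvate, and its mRNA stood at 2380, 2398 and 2556 CPM in controls and at 3068, 2836 and 2818 CPM with HGF, a log2 fold change of 0.25 (SE 0.0536, adjusted p = 0.00456). The groups did not overlap. PGK1 stood at 429, 437 and 493 CPM in controls and at 525, 525 and 630 CPM with HGF, a log2 fold change of 0.30 (SE 0.0879, adjusted p = 0.0197). Here too the groups did not overlap, and replicate 3 was the highest of each treatment as for LDHA. PKM, for the pyruvate kinase that ends glycolysis, and PGAM1, for the mutase before enolase, had log2 fold changes of 0.14 (adjusted p = 0.0896) and 0.15 (adjusted p = 0.0937). GAPDH, which makes NADH from glyceraldehyde phosphate, had 0.11 (95% interval -0.01 to 0.24, adjusted p = 0.172), and ALDOA, for the aldolase that splits fructose bisphosphate, had 0.12 (95% interval -0.03 to 0.26, adjusted p = 0.225).

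**Figure D1:**
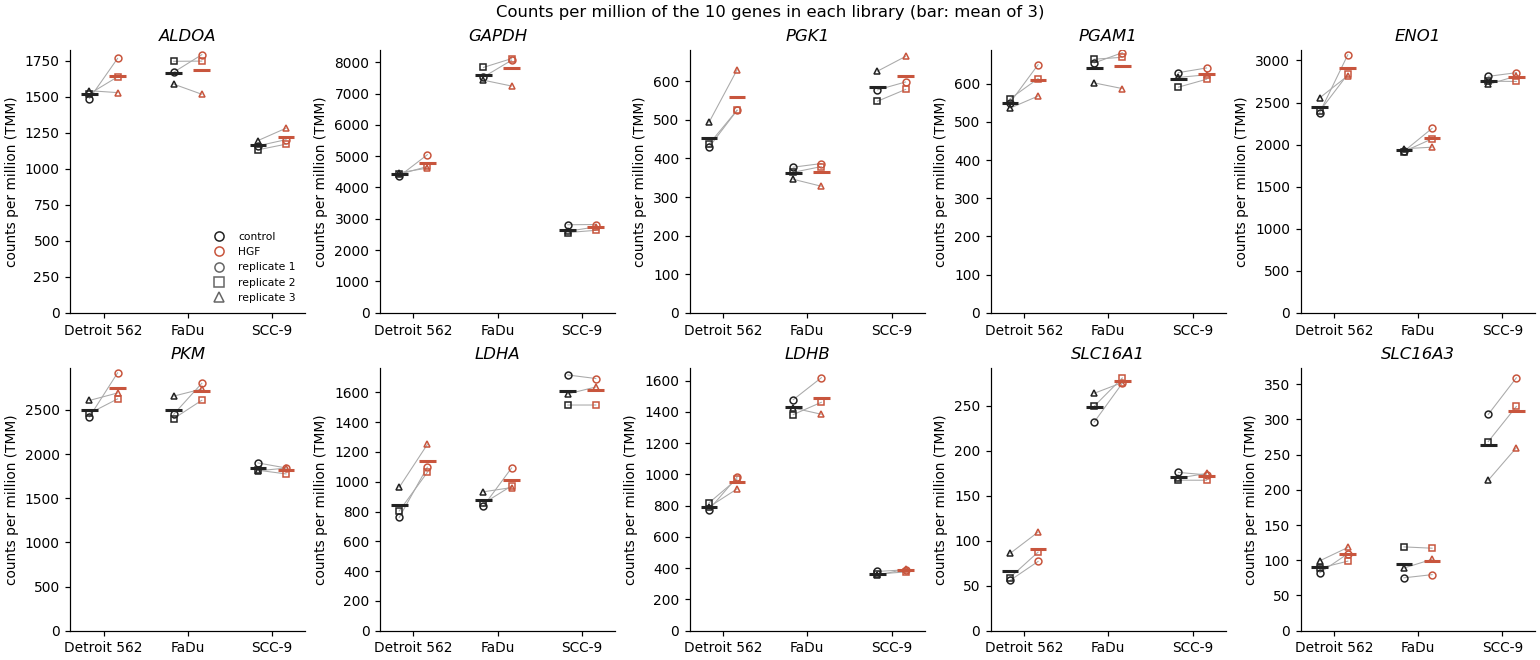
Level of each gene in every library in CPM after TMM normalization, with axes from 0. Black points are control and red points HGF libraries, marker shapes give the replicate, grey lines join same-numbered libraries and bars are means of 3. In Detroit 562 the HGF libraries of LDHA, LDHB, PGK1 and ENO1 lie above all controls, and in SCC-9 control and HGF libraries overlap for all 10 genes.

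Counted over the 10 genes in Detroit 562, the HGF libraries lay above all controls for 7 genes, against 18.1% of tested genes. The level was higher in 3 of 3 pairs for 9 genes, against 30.6%, and the fold change was above 0 for 10, against 48.9%. The adjusted p alone passed for 7 genes, against 16.9% of genes higher at that threshold, and in the blocked model for all 10, against 26.3%. The median log2 fold change was 0.26, and over all tested genes it was -0.01. The summed level of the 10 genes went from 13670 ± 433 to 15535 ± 613 CPM, without overlap (log2 difference 0.18, two-sided exact permutation p = 0.1, the smallest that 3 libraries against 3 allow).

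The calls of LDHA and SLC16A1 lay close to the minimum fold change. Scaled by library totals without TMM factors, the log2 fold changes were 0.38 for LDHA and 0.39 for SLC16A1, so that neither was called. LDHA was not called without control replicate 1 (0.36) or without HGF replicate 3 (0.36). SLC16A1 was not called without control replicate 1 (0.33, adjusted p = 0.132), control replicate 2 (0.37, adjusted p = 0.107) or HGF replicate 3 (0.30, adjusted p = 0.129), nor with the 6 Detroit 562 libraries fitted alone (0.45, adjusted p = 0.123). With both libraries of replicate 3 left out, a choice made after seeing the data, both genes were called, at 0.47 and 0.52.

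In FaDu no gene of the 10 was called, and in SCC-9 none was either. All 10 fold changes in FaDu were above 0, against 48.6% of tested genes, and ranged up to 1.15-fold for LDHA. In SCC-9 the fold changes lay between 0.99-fold for PKM and 1.19-fold for SLC16A3, 9 of them above 0, against 50.7%. edgeR called 0.0258% of all genes in FaDu and 0% in SCC-9. In the blocked model these shares were 5.6% and 1.97%, again with none of the 10 called. DESeq2, run with its prior and without it, called none of the 10 in either line, and its share of all genes is not given here. At an unadjusted p below 0.05 edgeR gave 1 of them in FaDu, LDHA, and 0 in SCC-9. Of the 15475 tested genes, 1247 passed in FaDu and 641 in SCC-9.

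In FaDu, LDHA stood at 837, 855 and 933 CPM without and at 1093, 972 and 961 CPM with HGF. The groups did not overlap, and the log2 fold change was 0.21 (SE 0.0900, 95% interval 0.01 to 0.40, adjusted p = 0.606). SLC16A1 stood at 232, 250 and 264 CPM without and at 275, 281 and 276 CPM with HGF, again without overlap (log2 fold change 0.16, 95% interval -0.12 to 0.44, adjusted p = 0.736). ENO1 was the third gene whose FaDu groups did not overlap, and 3 of 10 stands against 4.05% of tested genes. In the blocked model the adjusted p was 0.0317 for LDHA and 0.0405 for SLC16A1, below the minimum fold change, against 7.5% of genes higher at that threshold. PGK1 in FaDu stood at 377, 364 and 346 CPM without and 387, 379 and 328 CPM with HGF, fully overlapping, with a 95% interval of -0.18 to 0.19.

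In SCC-9, LDHA stood at 1717, 1515 and 1590 CPM without and at 1693, 1515 and 1636 CPM with HGF. The groups coincided, with a log2 fold change of 0.01 and a 95% interval from -0.18 to 0.20. SLC16A1 stood at 176, 167 and 170 CPM without and at 173, 167 and 175 CPM with HGF, with a 95% interval from -0.27 to 0.29. SLC16A3 was the one of the 10 with the largest fold change in this line, at 307, 268 and 214 CPM without and 359, 318 and 260 CPM with HGF. The groups overlapped because the libraries of replicate 3 were low and those of replicate 1 high in both treatments, and each HGF library lay above its own control. The log2 fold change was 0.25 (SE 0.173, 95% interval -0.12 to 0.61, adjusted p = 1), and in the blocked model its adjusted p was 0.0133, below the minimum fold change. SLC16A3 was the one gene of the 10 with an adjusted p below 0.1 there, against 1.83% of genes higher at that threshold. No gene of the 10 had HGF libraries above all controls in SCC-9, against 8.3% of tested genes, and 6 were higher in 3 of 3 pairs, against 23.9%. In FaDu 4 were higher in 3 of 3 pairs, against 20%.

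**Figure D2:**
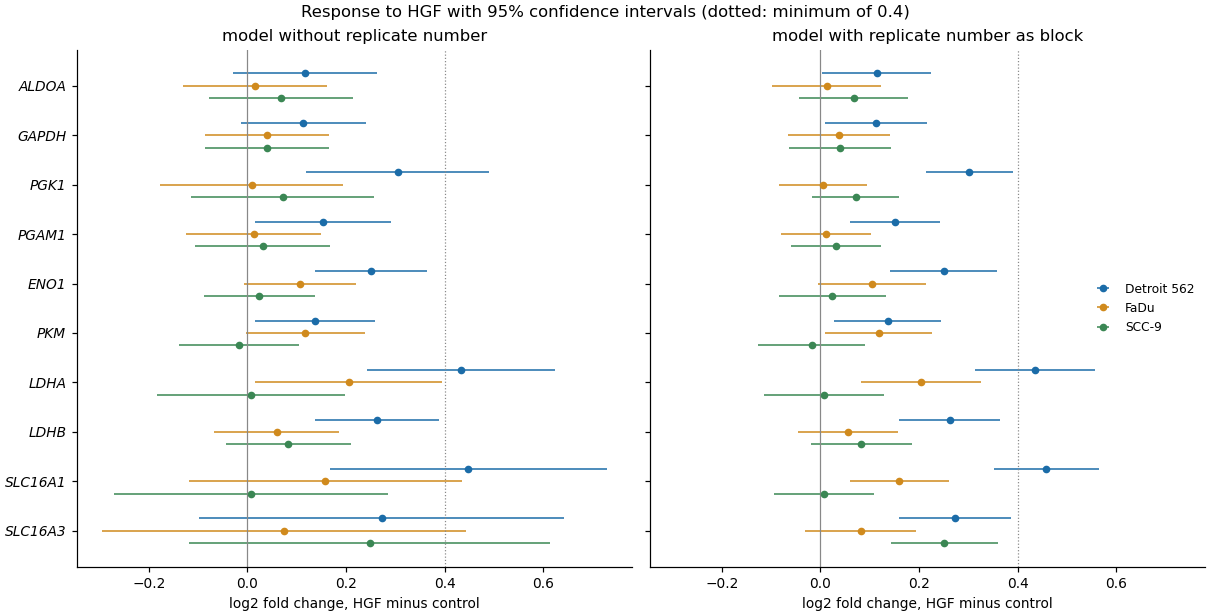
Log2 fold change of HGF against control for each gene in Detroit 562 (blue), FaDu (orange) and SCC-9 (green) with 95% confidence intervals, from the model without replicate term (left) and the blocked model (right). The solid line marks 0 and the dotted line the minimum of 0.4. In Detroit 562 only the points of LDHA and SLC16A1 lie beyond 0.4, and intervals are narrower in the blocked model, most clearly for SLC16A1 and SLC16A3.

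Whether the response differed between lines was tested as the difference of the HGF contrasts, at an adjusted p below 0.1 with no minimum. The 3 comparisons share libraries. Without the block none of the 10 genes passed in Detroit 562 against FaDu, Detroit 562 against SCC-9 or FaDu against SCC-9, where 0.239%, 0.924% and 0% of tested genes did. At an unadjusted p below 0.05, 2, 4 and 0 of the genes passed, against 1788, 2378 and 337 of the 15475 tested genes. DESeq2, at an adjusted p below 0.1, passed 0, 2 and 0, the 2 being ENO1 and LDHA. The shares above are those of edgeR, and the share of all genes that DESeq2 passed is not given here. In the blocked model 4 genes responded more in Detroit 562 than in FaDu (against 10.1% of genes higher), namely PGK1, LDHA, LDHB and SLC16A1. In that model 5 responded more in Detroit 562 than in SCC-9 (against 13.8%), the same 4 and ENO1, and 0 differed between FaDu and SCC-9 (against 1.32% in either direction).

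The response of LDHA was larger in Detroit 562 than in SCC-9 by 0.43 on the log2 scale (95% interval 0.16 to 0.69, adjusted p = 0.161), and with the block the adjusted p was 0.00238. That of SLC16A1 was larger by 0.44 (95% interval 0.05 to 0.84, adjusted p = 0.283), and with the block the adjusted p was 6.06e-04. PGK1 responded more in Detroit 562 than in FaDu by 0.30 (95% interval 0.03 to 0.56, adjusted p = 0.382), and with the block the adjusted p was 0.0054. SLC16A3 differed in response by 0.02 between Detroit 562 and SCC-9, with a 95% interval from -0.50 to 0.54, and its adjusted p was 0.871 in the blocked model. Without control replicate 3 of Detroit 562 the model without a block passed 1 gene against FaDu and 3 against SCC-9. The share of all genes passing in that fit is not given here, so these counts have no background.

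Between the untreated lines the 10 genes differed by up to 1.97 on the log2 scale. GAPDH, LDHB and SLC16A1 were called higher in FaDu than in both other lines, and LDHA and SLC16A3 in SCC-9. Detroit 562 was lowest in SLC16A1, at 66.9 ± 16.4 CPM against 248 ± 16.0 in FaDu and 171 ± 4.46 in SCC-9. Such differences were common, since 61%, 65.4% and 64.2% of tested genes were called in Detroit 562 against FaDu, Detroit 562 against SCC-9 and SCC-9 against FaDu. Of the 10 genes 3, 6 and 9 were called. Detroit 562 was lower than FaDu in 3 (against 29.8% of genes), and against SCC-9 it was higher in 3 (31.4%) and lower in 3 (33.9%). SCC-9 was higher than FaDu in 4 (33.5%) and lower in 5 (30.7%).

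LDHB spanned the widest range, at 1428 ± 47.7 CPM in FaDu, 795 ± 22.1 in Detroit 562 and 365 ± 13.0 in SCC-9, and all 3 steps were called. SCC-9 was below FaDu by 1.97 on the log2 scale (log2 fold change -1.97, SE 0.0618, adjusted p = 7.36e-14). LDHA went the other way, at 1607 ± 102 CPM in SCC-9 against 875 ± 50.8 in FaDu (log2 fold change 0.88, SE 0.0906, adjusted p = 1.53e-07). Detroit 562 and FaDu overlapped in LDHA (log2 fold change -0.05, 95% interval -0.24 to 0.14).

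SLC16A3 stood at 263 ± 46.9 CPM in SCC-9, 90.0 ± 8.59 in Detroit 562 and 94.4 ± 22.4 in FaDu. SCC-9 was above FaDu by 1.48 (SE 0.177, adjusted p = 9.36e-07), whereas Detroit 562 and FaDu overlapped (log2 fold change -0.07, 95% interval -0.44 to 0.30). SLC16A1 was lower in Detroit 562 than in FaDu (log2 fold change -1.89, SE 0.136, adjusted p = 1.76e-09) and than in SCC-9 (-1.35, SE 0.135, adjusted p = 8.83e-08). SCC-9 was below FaDu in SLC16A1 as well (-0.54, adjusted p = 0.0014).

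Among the enzymes, GAPDH stood at 7595 ± 213 CPM in FaDu, 4416 ± 56.8 in Detroit 562 and 2658 ± 133 in SCC-9, with each step called (the widest log2 fold change -1.51, SE 0.0608, adjusted p = 1.21e-12). PGK1 and ENO1 were higher in SCC-9 than in FaDu by 0.69 and 0.52, with Detroit 562 between them. ALDOA and PKM were lower in SCC-9 than in FaDu by 0.52 and 0.44 (log2 fold changes -0.52 and -0.44), and Detroit 562 and FaDu did not differ beyond their spread in PKM (95% interval -0.13 to 0.12). PGAM1 had no difference called between any 2 lines. PKM was not called with library totals alone (0.35 for Detroit 562 against SCC-9 and -0.39 for SCC-9 against FaDu), nor in the latter without FaDu control replicate 3 (-0.40).

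**Figure D3:**
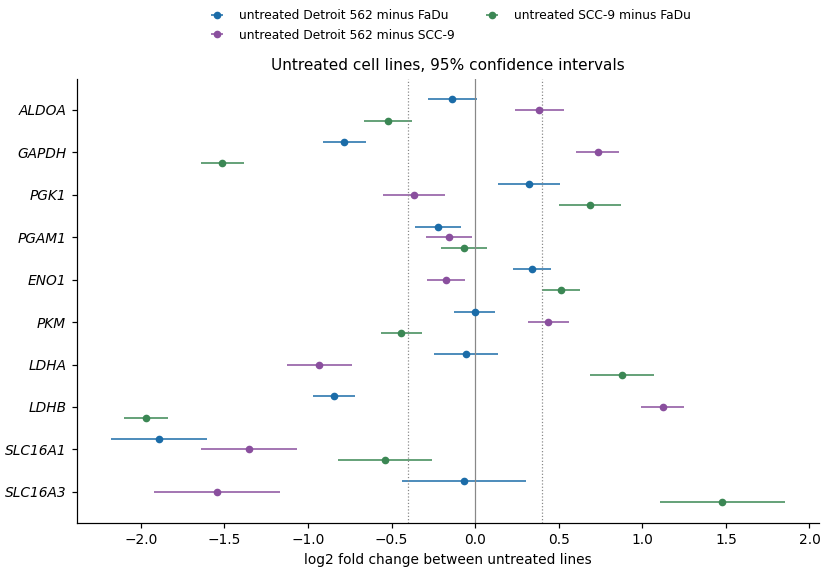
Log2 fold change of each gene between untreated lines with 95% confidence intervals, Detroit 562 minus FaDu in blue, Detroit 562 minus SCC-9 in purple and SCC-9 minus FaDu in green. The solid line marks 0 and the dotted lines the minimum of 0.4 in either direction. LDHB and GAPDH lie far to the left and LDHA and SLC16A3 far to the right for SCC-9 minus FaDu, and all 3 points of PGAM1 lie within 0.4 of 0.

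The balance of the lactate dehydrogenase genes was taken within each library, as the ratio of LDHA to LDHB counts per kb, which does not depend on library size. It was 0.356 ± 0.0258 in control FaDu, 0.617 ± 0.0786 in control Detroit 562 and 2.56 ± 0.113 in control SCC-9. None of the lines overlapped another, and SCC-9 was 7.18-fold above FaDu (two-sided exact permutation p = 0.1, the smallest possible). With HGF the ratio was 0.649, 0.637 and 0.801 in Detroit 562, where the controls had 0.571, 0.571 and 0.708. It went up in 3 of 3 pairs while the groups overlapped (log2 difference 0.17, exact permutation p = 0.3). In FaDu it went from 0.329, 0.360 and 0.381 to 0.392, 0.387 and 0.403, without overlap (log2 difference 0.15, exact permutation p = 0.1). In SCC-9 it went down in 3 of 3 pairs, from 2.63, 2.43 and 2.61 to 2.53, 2.34 and 2.41 (log2 difference -0.08, exact permutation p = 0.2).

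The ratio of SLC16A1 to SLC16A3, formed in the same way, was 1.88 ± 0.374 in control FaDu, 0.510 ± 0.0772 in control Detroit 562 and 0.460 ± 0.0803 in control SCC-9. FaDu was the line with more SLC16A1 than SLC16A3 per kb of reference transcript, and Detroit 562 and SCC-9 overlapped. The side of 1 on which Detroit 562 lies depends on the length used. Per kb of all annotated exons its control libraries averaged 10.5 CPM for SLC16A1 and 9.75 for SLC16A3, and its HGF libraries 14.4 and 11.8. With HGF the log2 difference was -0.24 in SCC-9, 0.19 in Detroit 562 and 0.08 in FaDu (two-sided exact permutation p = 0.3, 0.2 and 0.7).

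**Figure D4:**
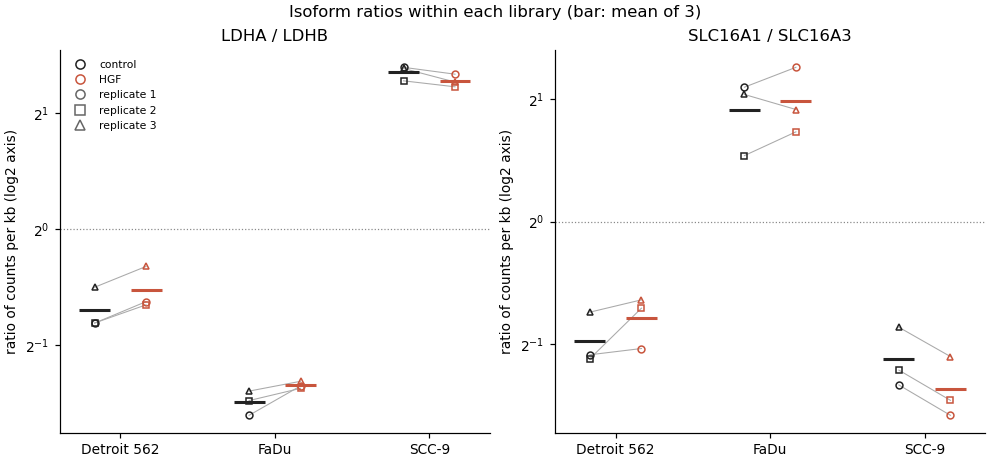
Ratio of LDHA to LDHB (left) and of SLC16A1 to SLC16A3 (right) in every library, as counts per kb of reference transcript on a log2 axis, with control in black, HGF in red, same-numbered libraries joined and bars for the mean of 3. The dotted line marks equal levels per kb. The LDHA to LDHB ratio is above 1 in all SCC-9 libraries and below 1 in all others, and on this length the SLC16A1 to SLC16A3 ratio is above 1 in all FaDu libraries and below 1 in the others, whereas per kb of all annotated exons the Detroit 562 means give a ratio above 1.

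The genes also varied between replicates, with the widest spread in SLC16A1 of Detroit 562 and in SLC16A3 of FaDu and SCC-9. In control Detroit 562 the coefficient of variation was 24.6% for SLC16A1 and 12.6% for LDHA, against 1.29% for GAPDH. For SLC16A3 it was 23.8% in control FaDu and 17.9% in control SCC-9. In Detroit 562 the libraries of replicate 3 held the highest LDHA, SLC16A1, PGK1 and SLC16A3 levels of their treatment, whereas the lowest PGAM1 of each treatment was also in replicate 3. In FaDu, SLC16A3 was highest in replicate 2 of both treatments, 0.32 and 0.30 above the line's mean on the log2 scale. The median of 10 hypoxia response genes outside glycolysis was 0.40 and 0.43 above its mean in the same libraries. In replicate 1 of FaDu SLC16A3 was 0.34 and 0.26 below (-0.34 and -0.26) and the hypoxia median at -0.28 and -0.18. In replicate 3 of FaDu they moved apart with HGF, SLC16A3 at 0.09 and the hypoxia median at -0.25, and were at -0.10 and -0.20 in the control. In Detroit 562 both were highest in HGF replicate 3 (0.26 and 0.30), while in control replicate 3 SLC16A3 was at 0.01 and the hypoxia median at -0.14. In SCC-9, SLC16A3 ranged from -0.41 to 0.34 and the hypoxia median from -0.04 to 0.09. The part of the hypoxia genes in these levels was not tested.

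**Figure D5:**
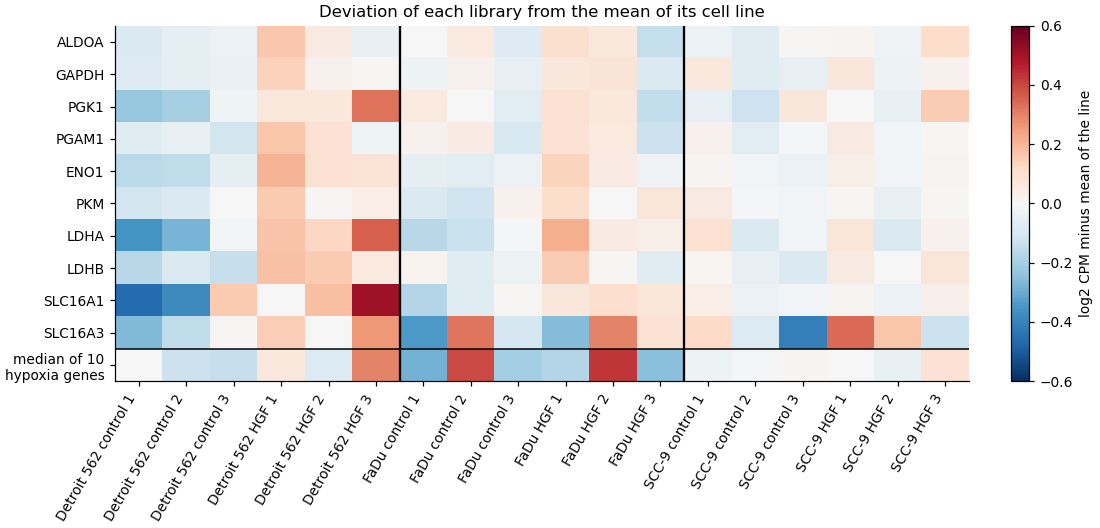
Log2 CPM of each gene in every library less the mean of its cell line, with the median of 10 hypoxia response genes in the bottom row. Red is above and blue below the mean of the line. The HGF library of replicate 3 in Detroit 562 is the reddest for SLC16A1 and LDHA, and in FaDu the row of SLC16A3 and the hypoxia row are both red in replicate 2.

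Genes that supply or flank these steps were taken from fixed lists, and their counts stand beside 6.16% of all tested genes called higher and 11.7% called lower in Detroit 562. Of 12 upper glycolysis genes, HGF raised 2 in Detroit 562 and lowered 0, with a median log2 fold change of 0.05. They were HK2, for the hexokinase that traps glucose (log2 fold change 0.65, adjusted p = 0.00628), and PFKP, for a phosphofructokinase (0.44, adjusted p = 0.00123). The blocked model, which called 7.13% of all genes higher in Detroit 562, added SLC2A3, for the glucose transporter GLUT3. Of 8 tested genes that govern pyruvate entry into mitochondria 3 fell and 0 rose. They were MPC1 (-0.42, adjusted p = 0.008) and MPC2 (-0.54, adjusted p = 0.00386), which form the mitochondrial pyruvate carrier, and PDK2 (-0.74, adjusted p = 0.00962), for a kinase that inhibits pyruvate dehydrogenase. Of 6 genes for factors of PKM splicing NEK2 fell (-0.41, adjusted p = 0.0158) and 5 were not called. Of the 10 hypoxia genes BNIP3 rose (1.09, adjusted p = 0.00263) and 9 were not called, with a median of 0.02. None of these lists held a called gene in FaDu or SCC-9, where the blocked model called PDK2 lower in both lines and VEGFA of the hypoxia list higher in FaDu. That model called 3.6% of all genes lower and 2% higher in FaDu, and 1.41% lower in SCC-9.

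Of the genes that assist lactate transport, none of 3 tested was called in Detroit 562. They include BSG, for the chaperone basigin that brings MCT1 and MCT4 to the membrane (log2 fold change 0.06, adjusted p = 0.563), and SLC16A7, for MCT2, which had the smallest p of the list (-0.28, adjusted p = 0.0397). Of 12 paralogs of the 10 genes that are mostly confined to other tissues, 8 had too few reads to be tested, among them LDHC, LDHAL6A and LDHAL6B with at most 10 counts in any library and PKLR with at most 5. ALDOC, ENO2, ENO3 and PGAM4 were tested and none was called in any line with HGF.

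The genes whose log2 CPM followed those of LDHA, SLC16A1 and SLC16A3 most closely over the 18 libraries are given as a description. Over all libraries, which differ mainly by line, they were AFAP1L1 (Pearson r = 0.987) and MFSD12 for LDHA, MTHFD2 (0.996), NSMAF and EAF1 for SLC16A1, and PIK3CD (0.978), NES and ZNF697 for SLC16A3. With the mean of each line removed they were SLC35F2 (0.968), SEH1L and CCT2 for LDHA, MTHFD2 (0.959), DDX3X and PPTC7 for SLC16A1, and P3H1 (0.892), DISC1 and SH2D2A for SLC16A3. MTHFD2 was on both lists of SLC16A1. Points of a library share its depth and normalization.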

How the data were processed

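mRNA of 18 libraries was analysed. Per the labels and the study's methods, the authors made stranded libraries with oligo-dT capture, demultiplexed with bcl2fastq 2.20.0.422, trimmed with cutadapt (1.16 in the submitters' processing notes), aligned with STAR 2.5.2b to GRCh38 with GENCODE 28 and counted with bedtools. The deposited values are raw counts per gene over its whole extent on its strand, so that a read in overlapping genes was counted for each. The table holds 18 duplicated rows of pseudoautosomal genes.

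Counts were filtered with filterByExpr, normalized by TMM and fitted with edgeR 4.0.16 (R 4.3.3, limma 3.58.1) as 6 groups over all libraries. p-values were adjusted over all 15475 genes. log2 CPM used a prior count of 2. DESeq2 1.42.0, other factors and filters, own-group fits, a replicate block and each library left out were alternatives. Ratios and sums were compared by exact permutation with scipy 1.17.1. Fits were tested on simulated data. The study's methods state that the experiment, from seeding to RNA isolation, was repeated, and the labels do not tie a library to a repeat. p-values measure the spread between libraries.

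Same-numbered control and HGF libraries correlated in their deviations from group means at 0.161 to 0.454 in Detroit 562, 0.376 to 0.563 in FaDu and 0.203 to 0.332 in SCC-9. Differently numbered ones correlated at -0.381 to 0.218, -0.489 to 0.139 and -0.240 to -0.0795. The deviations within a group cancel, so positive values in same-numbered pairs force negative ones elsewhere. The negative values are therefore no separate evidence of pairing. In Detroit 562, control 1 with HGF 2 (0.218) exceeded control 2 with HGF 2 (0.161), so replicates 1 and 2 are not clearly paired there. The numbers, which come from the labels, were taken to pair the libraries in the blocked model. In blocked comparisons of untreated lines the replicate effects are fixed terms. The 10 genes and all lists were chosen with earlier results of these data known. Besides the 10 genes, those called in a list were named, or otherwise the one with the smallest p, and the 3 with the highest correlation, of which 1 is not reported here.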

Additional observations from a re-analysis of the deposited data

Results flagged for a closer look

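The response of the LDHA to LDHB ratio to HGF went opposite ways between cell lines. In same-numbered pairs the log2 ratio moved by 0.19, 0.16 and 0.18 in Detroit 562, by 0.25, 0.11 and 0.08 in FaDu and by -0.06, -0.05 and -0.12 in SCC-9. The mean response differed by 0.25 between Detroit 562 and SCC-9 and by 0.22 between FaDu and SCC-9. The SLC16A1 to SLC16A3 ratio moved by 0.05, 0.41 and 0.10 in Detroit 562 and by -0.25, -0.25 and -0.24 in SCC-9, a difference of 0.43. Each of these differences had a two-sided exact permutation p of 0.1 over 3 pairs against 3, the smallest possible, and 0.15 after Benjamini-Hochberg adjustment over the 6 comparisons of 2 ratios between 3 pairs of lines. The comparisons share the SCC-9 libraries. They were flagged because all 3 pairs rose in Detroit 562 or FaDu and fell in SCC-9, which fixes a p of 0.1 in advance. The p therefore adds nothing to that observation. Within SCC-9 the control and HGF groups overlapped in both ratios.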

How the results depend on the processing

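Of 1910 recomputed values, 1785 kept their direction and side of the threshold or stayed within the spread between replicates, 26 passed a threshold that the reported value missed, 11 lost it, 15 counts or sums moved and 73 changed sign. The 1785 include ratios and sums recomputed over same-numbered pairs, which equal the reported value by construction. All 170 recomputed fold changes of the 10 genes in Detroit 562 with HGF stayed above 0. The number of genes called there was 0 with library totals alone, 1 with the 6 libraries of the line alone, 7 with no minimum fold change and 0 to 2 with 1 library left out, and the summed level differed by 0.13 with library totals alone. In the model with the replicate block, with the replicate numbers taken to pair the libraries, 4 genes responded more in Detroit 562 than in FaDu and 5 more than in SCC-9. The block changed no other call among the 10 genes. DESeq2 gave 2 genes in the latter with and without its prior. With 1 library left out, the counts without the block were 0 to 1 and 0 to 3. For DESeq2 and for fits with a library left out, the shares of all genes are not given here. With no minimum fold change, 7 genes differed between untreated Detroit 562 and FaDu, against 76.6% of tested genes. For untreated Detroit 562 and SCC-9 the number was 10, against 80.2%. The changes of sign concern values that were not called, and the cause was not tested. The largest of these values were the response differences of SLC16A3 between Detroit 562 and FaDu (0.20) and between FaDu and SCC-9 (-0.17), which were -0.0026 and 0.027 without FaDu control replicate 2. With library totals alone these were ALDOA (-0.0015), PGK1 (-0.0082) and PGAM1 (-0.0037) in FaDu with HGF, LDHA (-0.0019) and SLC16A1 (-0.0018) in SCC-9 with HGF, and the response difference of PKM between Detroit 562 and FaDu (-0.022) and of SLC16A3 between Detroit 562 and SCC-9 (-0.025). With upper-quartile factors they were LDHA (-2.76e-04) and SLC16A1 (-1.58e-04) in SCC-9 with HGF. The response difference of GAPDH between FaDu and SCC-9 was 0.0068 with DESeq2's size factors, 0.013 without a filter, 0.0090 with at least 50 counts in 3 libraries, 0.0077 in DESeq2 with and 0.0077 without its prior, and 0.010 with library sizes without the 10 genes. PKM in untreated Detroit 562 against FaDu was 0.0048 with DESeq2's size factors, 0.0060 in DESeq2 with and 0.0060 without its prior, and 0.0018 with library sizes without the 10 genes. With 1 library left out, the HGF response in FaDu ranged from -0.031 to 0.097 for ALDOA, -0.037 to 0.091 for PGK1, -0.030 to 0.089 for PGAM1, -0.0058 to 0.12 for LDHB and -0.066 to 0.28 for SLC16A3, and the SLC16A1 to SLC16A3 ratio there from -0.10 to 0.20. In SCC-9 it ranged from -0.031 to 0.0067 for PKM, -0.034 to 0.059 for LDHA and -0.0086 to 0.030 for SLC16A1. The response difference between Detroit 562 and FaDu ranged from -0.027 to 0.052 for PKM and -0.0026 to 0.34 for SLC16A3. Between Detroit 562 and SCC-9 it ranged from -0.0065 to 0.099 for ALDOA and -0.099 to 0.16 for SLC16A3. Between FaDu and SCC-9 it ranged from -0.10 to 0.029 for ALDOA, -0.033 to 0.063 for GAPDH, -0.11 to 0.019 for PGK1, -0.061 to 0.058 for PGAM1, -0.089 to 0.037 for LDHB and -0.31 to 0.027 for SLC16A3. Untreated Detroit 562 against FaDu ranged from -0.035 to 0.041 for PKM, -0.16 to 0.017 for LDHA and -0.21 to 0.13 for SLC16A3. The lowest count of the 10 genes in any library was 2176, for SLC16A1, and the effect of depth was not tested.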

Other observations

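Genes next to these steps also differed between the untreated lines. TPI1, for the triose phosphate isomerase just before GAPDH, stood at 1161 CPM in FaDu, 785 in Detroit 562 and 549 in SCC-9, the order of GAPDH, and was lower in SCC-9 than in FaDu (log2 fold change -1.08, adjusted p = 4.18e-11 in edgeR's quasi-likelihood test). BSG, for the chaperone of MCT1 and MCT4, was highest in FaDu at 780 CPM, against 338 in Detroit 562 and 414 in SCC-9. SLC16A7, for MCT2, was highest in Detroit 562, the line lowest in SLC16A1, at 32.8 CPM against 11.3 in FaDu and 7.81 in SCC-9. ALDOC, the brain-type aldolase, was at 33.4 CPM in FaDu, 18.5 in Detroit 562 and 2.67 in SCC-9. CA9, the carbonic anhydrase best known as a hypoxia target, stood at 142 CPM in SCC-9, 0.428 in FaDu and 0.0586 in Detroit 562. Other genes of the list of 10 hypoxia genes had other orders. Against SCC-9, Detroit 562 was called higher in 4 of them, among them ADM (41.3 against 26.9 CPM) and INSIG2 (35.1 against 18.7 CPM), and lower in 5. Of all tested genes 31.4% were called higher and 33.9% lower there. SCC-9 was called higher than FaDu in 5 (against 33.5% of tested genes) and lower in 0 (against 30.7%).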
